A study of Mus musculus with 16 samples.

Results

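The 5 mouse dopamine receptor genes, Drd1, Drd2, Drd3, Drd4 and Drd5, were followed in polysome-bound RNA of 3 groups of prelimbic cortex (PL) projection neurons. They were taken by gene symbol from tables of 39017 gene rows, and all 5 were present in each table. Dopamine receptors couple to G proteins and fall into a pair of classes. The D1 class, Drd1 and Drd5, raises cyclic AMP through stimulatory G proteins, and the D2 class, Drd2, Drd3 and Drd4, lowers it through inhibitory G proteins. Dopamine axons reach the prefrontal cortex from the midbrain. There D1-class and D2-class receptors are made by pyramidal cells of the deep layers and by interneurons, and Drd1 and Drd2 are the abundant pair in the striatum.

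The series used C57BL/6J mice, an inbred strain. An adeno-associated virus, AAV-IV-GFPL10, carrying a ribosomal protein fused to green fluorescent protein (GFP) was injected in PL. CAV-Cre, a canine adenovirus that is taken up by axon endings and carries the Cre recombinase, was injected where the axons end, which was the nucleus accumbens (NAc) in PL-NAc animals, the basolateral amygdala (BLA) in PL-BLA animals and the ventral tegmental area (VTA) in PL-VTA animals. Tagged polysomes pulled down with anti-GFP beads gave the IP libraries, and the total RNA of PL, from animals injected in the same way, gave the Input libraries. The 16 libraries formed 6 groups, of 3 IP and 3 Input libraries for PL-NAc, 3 and 3 for PL-BLA, and 2 and 2 for PL-VTA. The labels used here do not give the age or sex of the mice, nor whether replicates were separate animals or pools, so the p-values measure the spread between these libraries, which may be technical. The Input is bulk tissue that also holds the tagged neurons, and in bulk RNA fewer cells of a type and less RNA per cell cannot be told apart.

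Mean normalized counts summed to between 15437849 and 16520414 over the genes of a table, and the standard error (SE) of the log2 fold change of abundant genes (mean 50 or more) had medians of 0.124, 0.129 and 0.219 in the order NAc, BLA and VTA. The tables give means over libraries, and whole reads of single libraries were recovered from the digits of those means where a single combination of reads gave the mean. The libraries of a group are named a, b and c in order of size factor, and they could not be matched to the replicate numbers. In PL-VTA the IP libraries stood apart from each other in striatal transcripts. Of 7 markers of striatal medium spiny neurons whose reads could be recovered there, all 7 were higher in IP library b than in IP library a. The median was 3.37-fold, with a range of 1.14-fold to 5.70-fold. The share of all genes higher in library b was not counted, so whether this was particular to striatal genes was not tested. The results for PL-VTA are therefore given with both libraries and, where reads allowed, without library b.

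Drd1 was the most abundant dopamine receptor transcript per exon length in all 3 tables. Its mean level over IP and Input was 6.51 normalized reads per kilobase of exon per 1000000 reads for PL-NAc, 11.7 for PL-BLA and 20.2 for PL-VTA. Drd2 followed at 1.98, 3.85 and 3.33, so that Drd1 stood 3.28-fold, 3.03-fold and 6.08-fold above Drd2. The PL-VTA level of Drd1 rested in large part on IP library b. Without that library, and scaled to the same total, it was 11.3 in the combination of recovered reads nearest to the deposited values, and 9.52 to 14.9 over the 4 combinations with the deposited direction that are described below. Drd2 was then at 3.53, so that the ratio of Drd1 to Drd2 was 3.21-fold, with a range of 2.70-fold to 4.24-fold, in place of 6.08-fold. Drd5 was next at 0.566, 0.530 and 0.551, a level that hardly moved between the tables. Drd4 lay at 0.170, 0.278 and 0.0787, and Drd3 at 0.00648, 0.0728 and 0.151. The order of Drd3 and Drd4 was opposite in PL-VTA, where both rested on few reads, 17 for Drd3 and 18 for Drd4 over 4 libraries. The libraries for each projection were normalized separately, so levels set across tables are descriptions.

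**Figure D1:**
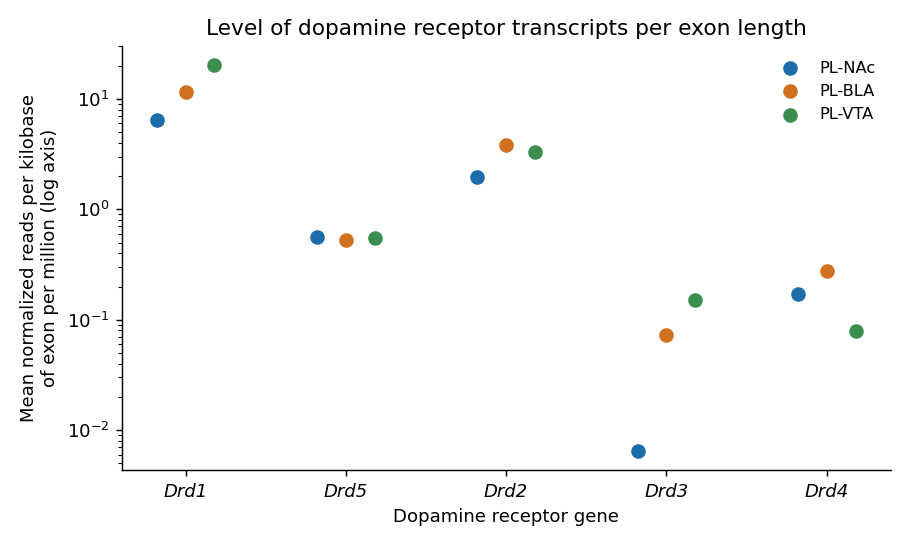
Mean level of each dopamine receptor gene (x axis) in normalized reads per kilobase of exon per 1000000 reads (log y axis), averaged by the authors over IP and Input, with 1 point for each projection. Drd1 was highest in every table, with 6.51 (PL-NAc), 11.7 (PL-BLA) and 20.2 (PL-VTA, 11.3 without IP library b), and Drd5 stayed between 0.530 and 0.566.

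The comparison of IP with Input asked which receptor transcripts were enriched in, or depleted from, the polysomes of each projection against the whole tissue. The authors' deposited adjusted p under 0.05 was the rule for a call, and the sign was read as IP over Input from glial and mitochondrial transcripts. Of 8 markers of excitatory neurons, 6 were higher and none lower in PL-NAc, 6 higher and 1 lower in PL-BLA, and none higher and 2 lower in PL-VTA, where 9 of 9 tested markers of layer 5 extratelencephalic neurons were higher. In the PL-BLA IP Drd1 and Drd2 fell and no receptor rose, beside 20.2% of all genes called lower. In the PL-VTA IP Drd2 fell and no receptor rose, beside 10.5% of all genes called lower. In PL-NAc none of the 5 was called by the authors' DESeq2 test, and none had an unadjusted p under 0.05. In either direction the same rule called 43.1% (PL-NAc), 41.0% (PL-BLA) and 21.5% (PL-VTA) of all genes tested. Drd3 had no adjusted p in any table, and Drd4 had none in PL-VTA, because their means lay below the limit under which the authors' deposited tables leave it blank.

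**Figure D2:**
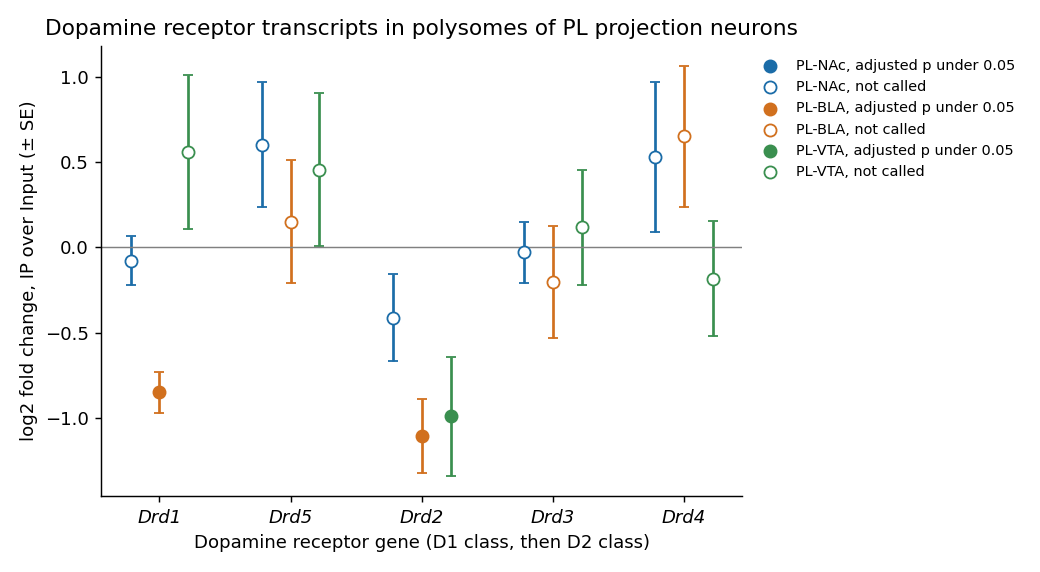
Log2 fold change of IP over Input (y axis, bars are 1 SE) from the authors' deposited tables for the 5 dopamine receptor genes (x axis) in 3 projections; filled points passed an adjusted p under 0.05. Drd1 lay at -0.85 in PL-BLA, -0.08 in PL-NAc and 0.56 in PL-VTA, and Drd2 lay below 0 in all 3.

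Drd1 (ENSMUSG00000021478, chromosome 13, 54051183 to 54055705, minus strand, GRCm38) encodes the main D1-class receptor of cortex and striatum. In PL-BLA its log2 fold change was -0.85 (SE 0.12, 95% interval -1.08 to -0.62; adjusted p = 1.34e-11) in the authors' deposited table, or 55.5% of Input. The mean of 692 normalized reads over 6 libraries corresponded to an estimated 894 reads in Input and 490 in IP, with the shrinkage of the deposited fold change undone. In PL-NAc the log2 fold change was -0.08 (SE 0.14, 95% interval -0.36 to 0.20; adjusted p = 0.714) in the authors' deposited table. The estimated means there were 375 reads in Input and 355 in IP. The PL-BLA table therefore held 2.39-fold more Drd1 in Input and 1.38-fold more in IP than the PL-NAc table, as estimated from means normalized separately. Reads of single libraries could not be recovered for Drd1 in these 2 projections, because too many combinations gave means of that size.

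In PL-VTA the log2 fold change of Drd1 was 0.56 (SE 0.45, 95% interval -0.32 to 1.44; adjusted p = 0.437) in the authors' deposited table. Its mean of 1213 was the highest of the receptors in the 3 tables, yet its SE reached 99.8% of the largest SE in that table. Of 8 combinations of whole reads that gave the deposited mean, 4 had the deposited direction. In all 4, IP library b held more Drd1 than IP library a, by 2.06-fold to 8.68-fold. The combination nearest to the deposited fold change and SE had 811 and 738 reads in Input libraries a and b, and 583 and 2514 in IP libraries a and b. Relative to the Input mean, Drd1 was then 0.821-fold in IP library a and 3.90-fold in IP library b, so the groups overlapped. The log2 ratio of the IP mean to the Input mean was 1.24 in that combination, and -0.29 without IP library b. In this combination the direction of Drd1 in PL-VTA thus rested on that library. Over the 4 combinations IP library a was below the Input mean in 2, at 0.536-fold and 0.821-fold. It was above the Input mean in 2, at 1.07-fold and 1.29-fold. The Input libraries were 3.31-fold, 1.03-fold, 2.998-fold and 26.8-fold apart in that order. The distances from the deposited fold change and SE were 0.233, 0.00946, 0.0782 and 0.439. For the receptors and striatal markers with a single combination in PL-VTA, Input library a was 0.735-fold to 1.34-fold of Input library b. The combinations were thus not equally near the deposited values, and whether Drd1 was above Input without library b differs between them.

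Drd1 differed between PL-NAc and PL-BLA in its change from Input to IP. Its estimated IP mean itself was higher in PL-BLA, at 490 normalized reads against 355 in PL-NAc, from means normalized separately. The difference of log2 fold changes, PL-NAc minus PL-BLA, was 0.77 (SE 0.19, 95% interval 0.41 to 1.14), with an adjusted p of 0.00592 by a two-sided Wald z with Benjamini-Hochberg adjustment over 21981 genes. Drd1 was the single receptor called in this comparison, which called 1.14% of all genes. The difference between PL-BLA and PL-VTA was larger, at -1.41 (SE 0.47, 95% interval -2.32 to -0.50), but its adjusted p by the same Wald test was 0.0740, and it involves the IP library that stood apart. Between PL-NAc and PL-VTA the difference was -0.64 (SE 0.47, 95% interval -1.56 to 0.29), and it was not called (unadjusted p = 0.179 by the same Wald test). No receptor was called in the comparisons of PL-NAc with PL-VTA and of PL-BLA with PL-VTA, which called 2.29% and 3.05% of all genes. Drd1 of PL-BLA minus PL-VTA was the single unadjusted p under 0.05 among them, at 0.00250.

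Drd5 (ENSMUSG00000039358, chromosome 5, 38319367 to 38322518, plus strand, GRCm38) encodes the other D1-class receptor, a single-exon gene. In PL-NAc the recovered reads were 19, 30 and 19 in Input and 38, 37 and 22 in IP. After division by the size factors every IP library lay above every Input library, with means of 34.7 ± 5.96 (SD, n = 3) against 20.4 ± 4.88 (SD, n = 3). The log2 fold change was 0.60 (SE 0.37; adjusted p = 0.185) in the authors' deposited table. Drd5 thus rested on 68 Input and 97 IP reads and was not called, in a table where 21.4% of genes were called higher. The share of all genes whose libraries separate without overlap was not counted, here or for the other receptors and projections. In PL-BLA the reads were 22, 37 and 22 in Input and 24, 26 and 32 in IP, and the groups overlapped. The log2 fold change there was 0.15 (SE 0.36; adjusted p = 0.782) in the authors' deposited table. In PL-VTA the reads were 20 and 24 in Input and 37 and 32 in IP. Both IP libraries lay above both Input libraries, in a table where 11.0% of genes were called higher, and the normalized reads of IP libraries a and b were close, at 1.82-fold and 1.73-fold of the Input mean. The log2 fold change was 0.45 (SE 0.45; adjusted p = 0.550) in the authors' deposited table. The log2 ratio of the recovered means was 0.83, and 0.86 without IP library b. Drd5 thus did not separate the PL-VTA IP libraries as Drd1 did, and it was not called in any projection. The gene Gm26560 lies on the opposite strand and shares 1531 exon bases with Drd5. The library kit does not mark the strand, so reads of the 2 genes over those bases cannot be told apart.

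Drd2 (ENSMUSG00000032259, chromosome 9, 49340627 to 49408177, plus strand, GRCm38) encodes the main D2-class receptor, which acts both on target cells and as an autoreceptor of dopamine neurons. In PL-BLA its log2 fold change was -1.11 (SE 0.22, 95% interval -1.53 to -0.68; adjusted p = 2.21e-06) in the authors' deposited table, or 46.5% of Input. The estimated means, with the shrinkage undone, were 223 normalized reads in Input and 97.6 in IP. In PL-VTA the log2 fold change was -0.99 (SE 0.35, 95% interval -1.67 to -0.31; adjusted p = 0.0254) in the authors' deposited table. The recovered reads in PL-VTA were 231 and 188 in Input and 55 and 103 in IP libraries a and b. Both IP libraries lay below both Input libraries, at 0.287-fold and 0.593-fold of the Input mean. Drd2 was thus below Input also in library b, where Drd1 was high. Yet Drd2 was 2.06-fold higher in library b than in library a, the same direction as Drd1 and the striatal markers. Leaving out 1 library at a time gave log2 ratios of the means from -1.80 to -0.75 around -1.18, and the value without IP library b was -1.80.

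In PL-NAc the recovered reads of Drd2 were 98, 116 and 87 in Input and 67, 68 and 47 in IP. At this mean 0.713 combinations were expected by accident, so these reads are less secure than those of the other recovered receptors. Their log2 ratio of means was -0.458, beside -0.455 from the deposited values with the shrinkage undone. Every IP library lay below every Input library after normalization, with means of 65.7 ± 5.59 (SD, n = 3) and 90.2 ± 8.39 (SD, n = 3). The log2 fold change was -0.41 (SE 0.26, 95% interval -0.91 to 0.09; adjusted p = 0.192) in the authors' deposited table. The authors' test did not call Drd2 here, in a table where 21.7% of genes were called lower. How many of all genes had libraries that separate in this way was not counted, so the separation is a description. Drd2 did not pass the test of a difference between projections. PL-NAc minus PL-BLA was 0.69 (SE 0.33, 95% interval 0.04 to 1.35) with an unadjusted p of 0.0386 and an adjusted p of 0.631 by the two-sided Wald z. PL-BLA minus PL-VTA was -0.12 (SE 0.41, 95% interval -0.92 to 0.69), an interval that leaves room for a difference in either direction.

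**Figure D3:**
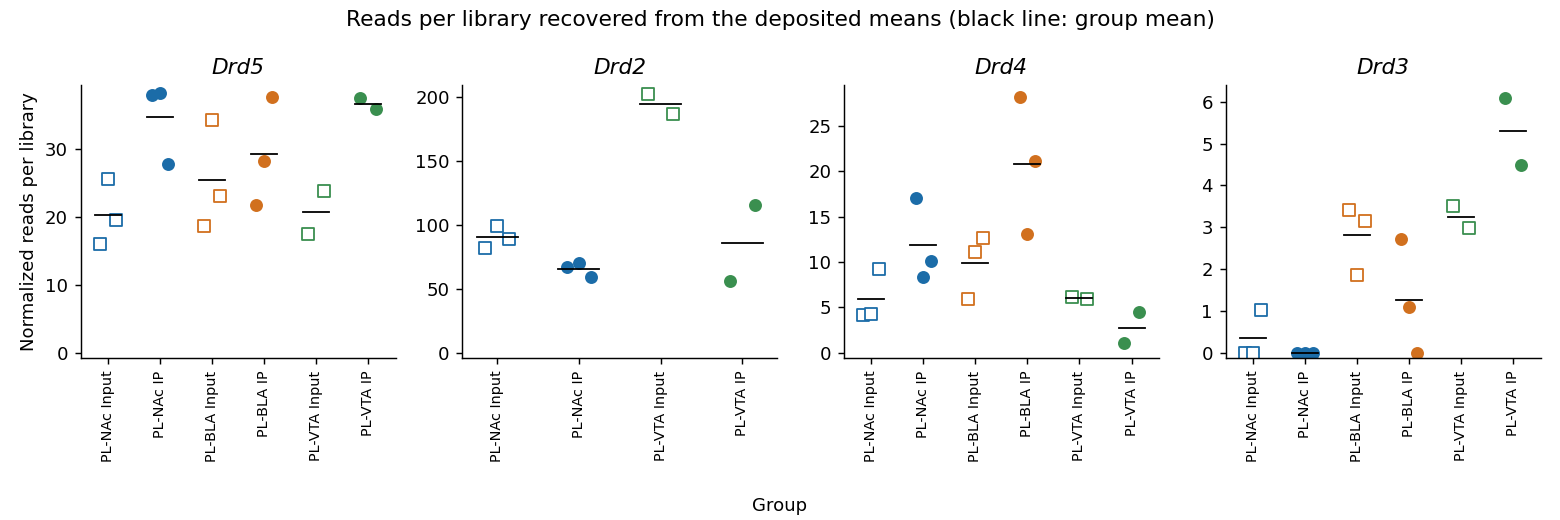
Reads per library divided by the size factor (y axis) for 4 receptors, recovered from the deposited means, by projection and group (x axis); open squares are Input, filled circles IP, and black lines group means. The panels have separate y axes. Drd2 IP libraries lay below Input in PL-NAc and PL-VTA, Drd5 IP libraries above Input in the same projections. On few reads, Drd3 IP libraries lay above Input in PL-VTA, and Drd4 IP libraries below Input in PL-VTA and above it in PL-BLA. The share of all genes whose libraries separate in this way was not counted. Drd2 of PL-BLA could not be recovered and is not shown.

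Drd4 (ENSMUSG00000025496, chromosome 7, 141292006 to 141296464, plus strand, GRCm38) encodes a D2-class receptor found in prefrontal neurons. Its reads were few. In PL-NAc they were 5, 5 and 9 in Input and 17, 8 and 8 in IP, and the groups overlapped after normalization. The log2 fold change was 0.53 (SE 0.44; adjusted p = 0.351) in the authors' deposited table. In PL-BLA the reads were 7, 12 and 12 in Input and 31, 12 and 18 in IP, and every normalized IP value, from 13.1 to 28.1, lay above every Input value, from 5.96 to 12.6. The log2 fold change was 0.65 (SE 0.41; adjusted p = 0.207) in the authors' deposited table, where 20.8% of genes were called higher. In PL-VTA the reads were 7 and 6 in Input and 1 and 4 in IP, with a log2 fold change of -0.18 (SE 0.34) in the authors' deposited table. The log2 ratio of the recovered means there was -1.14, and -2.57 without IP library b, on a single remaining IP read. The point estimate of Drd4 was thus above 0 in PL-NAc and PL-BLA and below 0 in PL-VTA, and neither difference between them passed the Wald test, with PL-BLA minus PL-VTA at 0.83 (SE 0.53, adjusted p = 0.929).

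Drd3 (ENSMUSG00000022705, chromosome 16, 43754026 to 43822932, plus strand, GRCm38) encodes a D2-class receptor best known from the ventral striatum. A single Drd3 read was found in the 6 PL-NAc libraries, in Input library c, and 0 reads in the 3 IP libraries, a count that allows up to 3 reads. In PL-BLA the reads were 4, 2 and 3 in Input and 3, 1 and 0 in IP. In PL-VTA they were 4 and 3 in Input and 6 and 4 in IP, a log2 ratio of the means of 0.71, or 0.91 without IP library b. The log2 fold changes of -0.03 (SE 0.18), -0.20 (SE 0.33) and 0.12 (SE 0.34) in the 3 deposited tables of the authors (NAc, BLA, VTA) were shrunken toward 0 and carry little information at these counts. A difference of Drd3 between IP and Input was not detectable at this depth.

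The levels of Drd1 and Drd2 were higher in the PL-BLA and PL-VTA tables than in the PL-NAc table, and so were those of striatal genes. A list of 21 markers of medium spiny neurons, the projection neurons of the striatum, was used, of which 20 were found and none was at 0 in any table; 5 of the 21 (Adcy5, Gnal, Pde10a, Ppp1r1b and Rgs9) also stand in the lists of dopamine signalling genes below. The mean counts of these 20 genes had a median of 1.94-fold in PL-BLA and 2.82-fold in PL-VTA over PL-NAc, against 1.06-fold and 1.08-fold for genes with a mean of at least 50. The mean of Drd1 was 1.90-fold and 3.33-fold, that of Drd2 2.05-fold and 1.80-fold, and that of Drd5 0.991-fold and 1.04-fold. Without IP library b the PL-VTA ratio of Drd1 was 1.86-fold in the nearest combination, and 1.56-fold to 2.45-fold over the 4 combinations, against 1.90-fold for Drd2 and 0.955-fold for Drd5. The 7 striatal markers with recovered reads had a median of 3.31-fold over PL-NAc with library b and 2.85-fold without it. The summed marker level was estimated at 23651 normalized reads in Input and 14383 in IP in PL-NAc, 44360 and 22655 in PL-BLA, and 40171 and 49161 in PL-VTA. The part of striatal RNA in the receptor values was not tested.

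Of the 20 striatal markers, the PL-NAc IP held 16 that were lower and 1 that was higher, and the PL-BLA IP 19 that were lower and none that was higher. Of all genes tested, 21.7% and 20.2% were called lower. Their median log2 fold changes of -0.86 and -1.09 stood beside -0.03 and -0.02 for all genes tested. Tac1, the substance P precursor gene, fell in PL-NAc (-1.73, SE 0.13) and PL-BLA (-1.92, SE 0.11), as did Syndig1l, a synaptic membrane protein gene (-1.83, SE 0.15, and -2.52, SE 0.13), in the authors' deposited tables. In PL-VTA 2 markers were lower, 1 higher and 17 not called, beside 10.5% of all genes called lower and 11.0% called higher. The adenosine receptor gene Adora2a (-2.24, SE 0.29) and the orphan receptor gene Gpr6 (-0.96, SE 0.28), both of medium spiny neurons of the indirect pathway, which carry Drd2, fell there in the authors' deposited table. Pdyn, the prodynorphin gene of the direct pathway neurons that carry Drd1, rose (1.42, SE 0.39) in the authors' deposited table. The 17 others were not called, and a division of the whole list by pathway was not tested. As with Drd1, the SE was wide for the markers in PL-VTA, where 11 of 19 with a mean of at least 100 had an SE over 90% of the largest, against 0.477% of all such genes.

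In the reads of the PL-VTA IP libraries the 7 markers fell on both sides of Input. In IP library a 6 of the 7 were below the Input mean, and in IP library b 5 of the 7 were above it. Isl1, a transcription factor gene, was 0.705-fold of the Input mean in IP library a and 4.02-fold in library b. Whether the markers divide by direct and indirect pathway was not tested. Six3, also a transcription factor gene, was 0.535-fold and 2.66-fold, Serpina9, a serpin gene, 0.746-fold and 3.06-fold, and Ido1, a tryptophan-degrading enzyme gene, 0.686-fold and 2.31-fold. Actn2, an actinin gene, was above Input in both libraries, at 1.08-fold and 1.45-fold. Adora2a and Gpr6 were the 2 markers below Input in both libraries, at 0.108-fold and 0.245-fold for Adora2a and 0.445-fold and 0.509-fold for Gpr6. Drd1 was 0.821-fold and 3.90-fold in the nearest combination, with library a above Input in 2 of the 4 combinations. Drd2 lay below Input in both libraries, though 2.06-fold higher in library b than in library a. Whether the Drd1 reads of library b came from PL neurons was not tested.

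**Figure D4:**
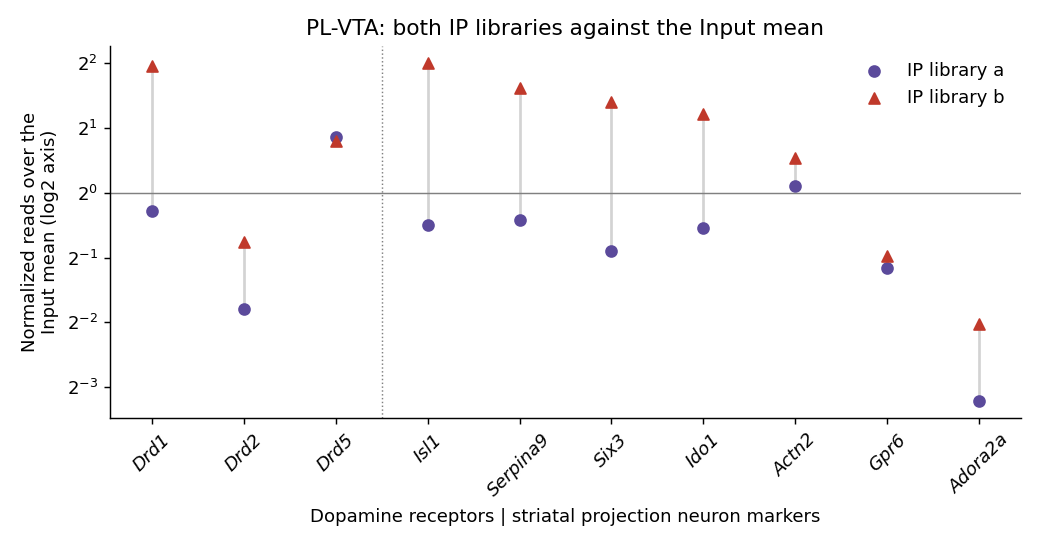
Normalized reads of IP libraries a and b of PL-VTA over the Input mean (log2 y axis) for Drd1, Drd2, Drd5 and 7 striatal markers (x axis); the grey line is the Input mean, and Drd1 is the combination nearest to the deposited fold change and SE. In library b 5 of the 7 markers and Drd1 lay above Input, while Drd2, Gpr6 and Adora2a were below Input in both libraries.

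Markers of cortical layers also moved beside Drd1. Of 11 layer 6 and 6b markers, PL-NAc had 5 higher and 2 lower, PL-BLA had 2 higher and 6 lower, and PL-VTA had 1 higher and 2 lower. Of all genes tested, 43.1%, 41.0% and 21.5% were called in either direction. In the Wald test of PL-NAc minus PL-BLA, 6 of the 11 were called, all higher in PL-NAc, against 0.391% of all genes called in that direction. Among them the corticothalamic transcription factor gene Foxp2 differed by 1.80 (SE 0.23, adjusted p = 2.88e-11) and the synaptotagmin gene Syt6 by 1.25 (SE 0.20, adjusted p = 1.97e-07). Of 10 layer 5 extratelencephalic markers 6 were called higher in the same test, and of 20 striatal markers 3 were higher and 1 lower. In this test Drd1, at 0.77, had the same direction as the called markers of layer 6 and of layer 5 extratelencephalic neurons. It shared that direction with 3 striatal genes, Ppp1r1b, Adcy5 and Rxrg, and not with Penk, the striatal gene called lower. Markers of other cell types went the opposite way in the same test, with 7 of 10 astrocyte, 5 of 8 oligodendrocyte and 2 of 8 microglia markers called lower in PL-NAc and none higher, at median differences of -0.73, -0.68 and -0.81. Of 19 inhibitory neuron markers 5 were called lower and 2 higher, with a median of -0.40, and the median of all genes was -0.01. The part of these cell types in the Drd1 difference was not tested. In PL-NAc minus PL-VTA, where Drd1 was at -0.64 and not called, 2 layer 6 markers were called higher and none lower. Of the layer 5 extratelencephalic markers 8 were lower there and none higher. In PL-BLA minus PL-VTA, with Drd1 at -1.41 and not called, 4 layer 6 and 9 layer 5 extratelencephalic markers were lower and none higher. These tests called 2.29% and 3.05% of all genes. Inhibitory neuron markers, which mark another source of receptor RNA, were lower for 18, 16 and 12 of 19 and higher for 1, 0 and 1 in the order NAc, BLA and VTA. The shares of all genes called lower were 21.7%, 20.2% and 10.5%.

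**Figure D5:**
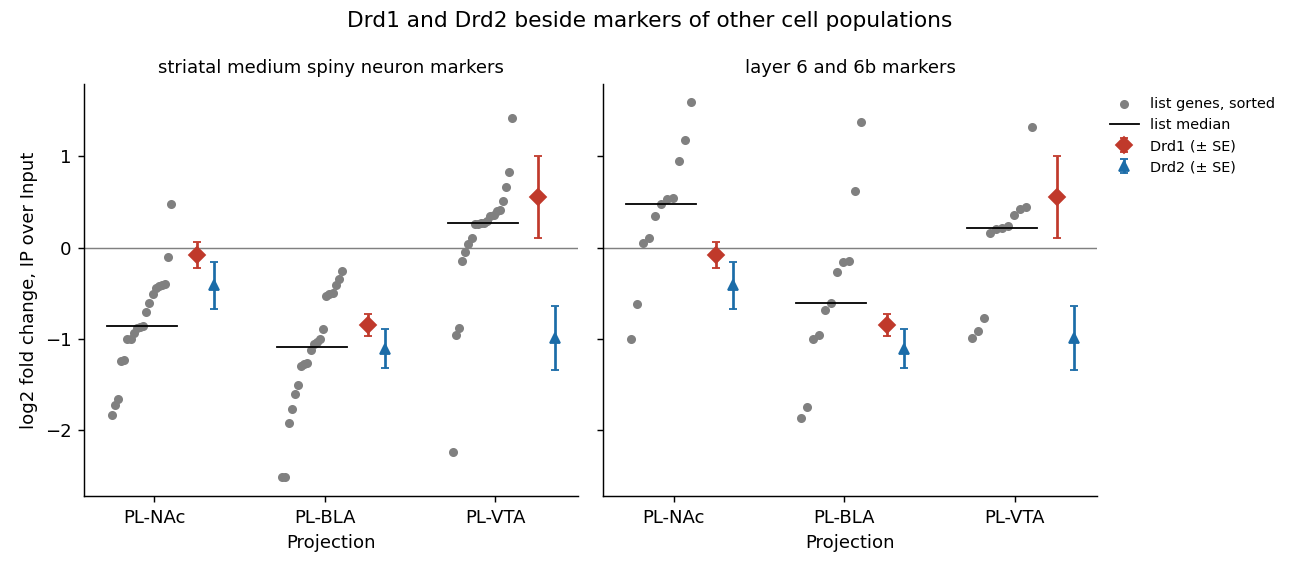
Log2 fold change of IP over Input (y axis) by projection (x axis) for 20 striatal markers (left) and 11 layer 6 and 6b markers (right) as grey points sorted by value, with the list median as a black line and Drd1 and Drd2 with 1 SE beside them. In the order NAc, BLA and VTA the striatal medians were -0.86, -1.09 and 0.27, and the layer 6 medians 0.47, -0.60 and 0.22.

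Genes of dopamine synthesis, transport and breakdown were read beside the receptors, since the tissue also holds dopamine axons and cells that make the enzymes. Of 15 such genes, 14 were tested in each table, with 3 higher and 4 lower in PL-NAc, 3 and 4 in PL-BLA, and 2 and 2 in PL-VTA. Among all genes tested, 43.1%, 41.0% and 21.5% were called in either direction. Their median log2 fold changes of -0.24, -0.18 and -0.35 stood beside -0.03, -0.02 and 0.02 for all genes tested. Th, tyrosine hydroxylase, the rate-limiting enzyme of dopamine synthesis, fell in all 3, with log2 fold changes of -1.46 (SE 0.11), -0.77 (SE 0.14) and -1.34 (SE 0.22) in the authors' deposited tables. Ddc, the decarboxylase that makes dopamine, and Slc18a2, the vesicular monoamine transporter, fell in PL-NAc (-2.01, SE 0.33, and -1.08, SE 0.29) and PL-BLA (-1.16, SE 0.31, and -0.97, SE 0.29) in the authors' deposited tables. Slc6a3, the dopamine transporter, had means of 12.4, 13.8 and 9.74 reads and was not called.

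Downstream of the D1 class, 20 genes of the cyclic AMP arm were tested. In PL-NAc 6 were higher and 7 lower, in PL-BLA 7 and 8, and in PL-VTA 5 and 1, with medians of -0.01, -0.06 and 0.23. These counts stand beside 43.1%, 41.0% and 21.5% of all genes called in either direction. Ppp1r1b, which encodes the phosphatase inhibitor DARPP-32, fell in PL-NAc (-1.00, SE 0.17) and PL-BLA (-1.77, SE 0.07) in the authors' deposited tables. The G protein subunit gene Gng7 fell in PL-NAc (-0.69, SE 0.08) and PL-BLA (-1.61, SE 0.07) and rose in PL-VTA (0.83, SE 0.14) in the authors' deposited tables. Among the protein kinase A subunit genes Prkar1a rose in all 3 projections (0.43, 0.50 and 0.58, with SE 0.06, 0.06 and 0.12) in the authors' deposited tables. Prkaca (0.52, SE 0.06, and 0.46, SE 0.07) and Prkar1b (0.38, SE 0.06, and 0.62, SE 0.07) rose in PL-NAc and PL-BLA, and were at 0.33 (SE 0.14) and 0.25 (SE 0.13) in PL-VTA, not called, in the authors' deposited tables. Adcy1, an adenylyl cyclase, was the single lower gene of this arm in PL-VTA (-0.50, SE 0.14), and it also fell in PL-NAc (-0.41, SE 0.07) and PL-BLA (-0.81, SE 0.08), in the authors' deposited tables.

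Downstream of the D2 class, 14 genes of the inhibitory G protein arm gave 6 higher and 4 lower in PL-NAc, 5 and 5 in PL-BLA, and 4 and 0 in PL-VTA, with medians of 0.01, 0.09 and 0.13. Here and for the next list, the shares of all genes called in either direction were 43.1%, 41.0% and 21.5%. The inhibitory G protein gene Gnaz rose in PL-NAc (0.65, SE 0.06), PL-BLA (0.69, SE 0.07) and PL-VTA (0.61, SE 0.14) in the authors' deposited tables. Rgs9, a regulator that speeds G protein shut-off in the striatum, fell in PL-NAc (-0.61, SE 0.12) and PL-BLA (-1.00, SE 0.11) in the authors' deposited tables. Of 15 regulators and binding partners of the receptors, 6 were higher and 4 lower in PL-NAc, 6 and 4 in PL-BLA, and 4 and 3 in PL-VTA, with medians of 0.03, -0.01 and -0.12. Caly, calcyon, a vesicle protein named for its link to the D1 receptor, rose in PL-NAc (0.96, SE 0.07), PL-BLA (0.73, SE 0.07) and PL-VTA (0.72, SE 0.14) in the authors' deposited tables. Arrb1, a beta-arrestin that binds phosphorylated receptors, fell in PL-NAc (-0.41, SE 0.08), PL-BLA (-0.38, SE 0.09) and PL-VTA (-0.65, SE 0.17) in the authors' deposited tables. Caly and Gnaz thus rose in all 3 projections, including PL-BLA, where Drd1 and Drd2 fell.

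The genes most like Drd1 over the 3 log2 fold changes, by Euclidean distance among 11937 genes with a mean of at least 50 in every table, were Pde9a (distance 0.11), Lmo3 (0.19) and Zdbf2 (0.20). Pde9a, a cyclic GMP phosphodiesterase gene, had -0.13, -0.76 and 0.61 in the order NAc, BLA and VTA in the authors' deposited tables. Those most like Drd2 were Luc7l2 (0.23), Ddah2 (0.26) and Iqgap1 (0.27). Lmo3, a LIM-domain transcription cofactor gene, had -0.04, -0.75 and 0.39 in the same order in the authors' deposited tables. Drd3, Drd4 and Drd5 had means too low for this comparison. The likeness rests on 3 comparisons and is a description.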

How the data were processed

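Per the labels' protocols, cDNA came from the SMARTer Ultra Low kit and sequencing libraries from Nextera XT, a chemistry that does not mark the strand. The submitters' processing notes name STAR 2.3, featureCounts and DESeq2, with mm10 and GRCm38 as builds; the sources used here do not give other versions, the annotation or the formula. The deposited tables, 1 per projection, hold the authors' mean signal (mean of normalized read counts over IP and Input libraries), log2 fold change with its SE, Wald score, p-value and adjusted p-value, per the file headers. The headers do not name the direction, which was read as IP over Input because glial and mitochondrial transcripts were negative. The deposited log2 values behave as shrunken toward 0, so they understate changes of low or variable genes.

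From these, differences between projections were tested with a two-sided Wald z and Benjamini-Hochberg adjustment over all genes with a p-value in both tables. A simulation checked the calculation only. It drew normal noise of the deposited SE for genes of mean 50 or more in PL-NAc and PL-BLA. It thus could not show how the test behaves with shrunken values or with groups of 2 libraries. Input and IP means were estimated from the deposited mean after approximately undoing the shrinkage. Size factors (0.789 to 1.19 in PL-NAc, 0.850 to 1.17 in PL-BLA, 0.893 to 1.14 in PL-VTA) were read from genes with a single read. Whole reads per library were then those combinations of integers that give the deposited mean to 15 significant digits. Of 200 genes drawn per table at low means, 200 had exactly 1 combination. The drawn means lay below those of Drd2 and of the recovered striatal markers of PL-VTA, so the draw does not cover these. Combinations expected by accident numbered 0.713 for Drd2 in PL-NAc, and at most 0.00425 for genes of PL-VTA with a single combination. The sign of single-read genes showed which libraries are IP. This recovery was chosen after seeing the data. Levels use exon lengths of GENCODE M21. Read counts of PCR-amplified libraries without molecular identifiers are not independent molecules, so depth limits cover counting error only. Python 3.11.15, numpy 2.4.6, scipy 1.17.1 and pandas 2.3.3 were used. The receptors are reported always; from the pathway lists Th, Ddc, Slc6a3 and Slc18a2, and up to 2 called genes with the smallest p in each direction, were eligible to be named, and from marker lists 2 called genes with the smallest p; Isl1, Gpr6, Rxrg, Adcy5, Gnal and the other markers whose reads could be recovered were named after their values were seen; some genes the rule names are not reported here. The members and lists were chosen with earlier results of these data known. Alternatives were other adjustment sets, thresholds, centring and undone shrinkage.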

Additional observations from a re-analysis of the deposited data

Results flagged for a closer look

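The IP over Input change of Drd1 differed between PL-NAc and PL-BLA by 0.77 (SE 0.19) on the log2 scale, with an adjusted p of 0.00592 by the two-sided Wald z, which is a test of the difference itself. The value was -0.08 in PL-NAc and -0.85 in PL-BLA in the authors' deposited tables. Estimated Drd1 means in that order were 375 and 894 normalized reads in Input, and 355 and 490 in IP. The estimated IP level was thus higher in PL-BLA, where the ratio of IP to Input was lower. The part of the Input level in the difference was not tested.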

How the results depend on the processing

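The count of called receptors stayed at 0 in PL-NAc and 2 in PL-BLA under adjustment over every gene with a p-value, adjustment over genes of mean 50 or more, an adjusted p under 0.01, and centring on the median fold change. In PL-VTA the count went from 1 to 0 at an adjusted p under 0.01, since that of Drd2 was 0.0254, and stayed at 1 under the other 3 alternatives. Drd1 remained the 1 receptor that differed between PL-NAc and PL-BLA under all 5 alternatives, with adjusted p by the Wald test from 0.000452 to 0.00650. For PL-BLA minus PL-VTA the count went from 0 to 1 with genes of a mean of at least 50 (Drd1, adjusted p = 0.0454 by the Wald test). It also went to 1 with the difference of Wald statistics (adjusted p = 2.30e-07). That alternative, 1 of the 5 above too, compares fold changes divided by their own SE, so it is not a test of equal fold changes. Unlike SE enter it, and those of Drd1 were 0.12 in PL-BLA and 0.45 in PL-VTA. The count stayed at 0 under a threshold of 0.01, centring (adjusted p = 0.0779 by the Wald test) and undone shrinkage (adjusted p = 0.434 by the Wald test). Among single values, undone shrinkage turned the uncalled differences of Drd5, PL-NAc minus PL-VTA, from 0.15 to -0.054 and of Drd2, PL-BLA minus PL-VTA, from -0.12 to 0.019; the cause was not tested. Of 132 single values, 127 kept direction and call; of 156 list counts, 4 moved by over 1.5 times. No paired analysis was possible because the deposited tables carry no replicate numbers; for the same reason the authors' test was not refitted without single libraries, and leaving out libraries used recovered reads. Low reads limit Drd3, Drd4 and Drd5, and 2 libraries per group limit PL-VTA.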
